A study of Mus musculus with 3 samples.

Results

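Macrophages that held transcripts of both Gpnmb and Fabp4 were examined among CD45-selected leukocytes of infarcted mouse hearts. A cell was counted as a Gpnmb Fabp4 macrophage if it held at least 5 molecules of Gpnmb and at least 3 of Fabp4, and if the complement genes C1qa, C1qb and C1qc together made up at least 0.1% of its molecules. The class II genes H2-Aa, H2-Ab1 and H2-Eb1 with Cd74 had to stay under 1%, the cavity macrophage genes Prg4 and Gata6 and the osteoclast genes Ocstamp and Dcstamp at no more than 1 molecule a pair, the cycling genes Top2a and Mki67 at no more than 2, and Cd3e, Cd3d, Cd3g and Cd79a at 0. These limits were met by 1164 of 25640 cells with at least 200 genes, or 4.54% (95% Clopper-Pearson interval 4.29 to 4.80%). The interval covers counting error only, and the share per sample tag ran from 0.217 to 10.3%. The 1164 cells were set against 10256 other C1q cells, which met the C1q, cycling, Cd3 and Cd79a limits but not the rest. A second set for comparison was made up of 3398 Gpnmb-only cells, which met every limit except that of Fabp4 and are part of the other C1q cells, so both comparisons share the Gpnmb Fabp4 macrophages and some of the cells they are set against.

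The cells came from F7fl/fl CX3CR1Cre mice and F7fl/fl WT mice, so both groups carried the floxed gene of coagulation factor VII, and the groups differed in a Cre recombinase driven from Cx3cr1, a chemokine receptor gene of monocytes and macrophages. Hearts were infarcted by permanent ligation, and cells taken from the infarct at different times were pooled into 3 multiplexed libraries on the BD Rhapsody platform, in which each cell is captured with a bead and each transcript carries a molecular identifier. Sample tags marked the biological replicates, 7 of them in library 1, with 5 and 6 in libraries 2 and 3. The sources used here do not tie a tag to a genotype or a time, and do not say whether hearts were pooled, so tests compare groups of cells within a tag, and no genotype or time was compared. Cre from this locus acts only in cells in which Cx3cr1 is or was active, which limits the model to those cells. The tags held 10152522 to 62344127 molecules each. Cell indices shared between libraries numbered 4 for libraries 1 and 2, 3 for libraries 1 and 3, and 0 for libraries 2 and 3.

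Gpnmb encodes a transmembrane glycoprotein of lysosomes and the cell surface that is made in quantity by phagocytes with a loaded lysosome, and Fabp4 encodes a fatty acid binding protein that macrophages and adipocytes use to carry lipids in the cytoplasm. Macrophages that clear dying cells take up membrane lipids and cholesterol. Lysosomal acid hydrolases break these down in a lumen kept acidic by the vacuolar proton pump, and the products are stored in droplets, oxidised or exported. Macrophages of fat tissue, plaques and damaged organs that carry out such work are often recognised by Trem2, Spp1, Lgals3, Lpl and Gpnmb.

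Gpnmb lies at chr6:49036546-49070929, plus strand, and Fabp4 at chr3:10204088-10208576, minus strand (GRCm38, genes of GENCODE M21). Fabp5, which encodes a related fatty acid binding protein, starts 192 kb away from Fabp4 on the same chromosome. Promoters are shown for Gpnmb, which leads the rule, for Syngr1 and Ctsl, which stood apart from the other cells in every tag, and for F7, the gene that the study deleted. Each runs from 250 bases before to 50 bases after the start of the gene (RefSeq, GRCm38.p6), 5′ to 3′ on the strand of the gene, with motifs that were searched in capitals. Gpnmb is at chr6:49036268-49036567, plus strand, Syngr1 at chr15:80091084-80091383, plus strand, Ctsl at chr13:64370471-64370770, minus strand, and F7 at chr8:13025784-13026083, plus strand.
Gpnmb: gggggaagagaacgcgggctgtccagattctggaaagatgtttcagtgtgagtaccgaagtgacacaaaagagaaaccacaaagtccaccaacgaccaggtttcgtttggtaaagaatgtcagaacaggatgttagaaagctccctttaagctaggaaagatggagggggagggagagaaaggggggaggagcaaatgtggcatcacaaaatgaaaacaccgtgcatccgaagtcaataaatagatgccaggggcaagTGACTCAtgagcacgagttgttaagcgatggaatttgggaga
Syngr1: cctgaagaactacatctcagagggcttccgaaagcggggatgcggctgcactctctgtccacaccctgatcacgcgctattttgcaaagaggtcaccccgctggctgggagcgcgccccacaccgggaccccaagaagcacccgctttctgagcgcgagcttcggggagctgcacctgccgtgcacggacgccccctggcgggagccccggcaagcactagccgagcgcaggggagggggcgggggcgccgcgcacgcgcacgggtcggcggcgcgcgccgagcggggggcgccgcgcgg
Ctsl: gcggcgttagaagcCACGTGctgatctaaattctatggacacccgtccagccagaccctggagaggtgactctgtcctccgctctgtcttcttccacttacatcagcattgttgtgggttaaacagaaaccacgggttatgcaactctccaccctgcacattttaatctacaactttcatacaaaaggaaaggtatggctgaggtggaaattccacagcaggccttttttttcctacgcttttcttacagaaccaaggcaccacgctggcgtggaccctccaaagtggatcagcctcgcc
F7: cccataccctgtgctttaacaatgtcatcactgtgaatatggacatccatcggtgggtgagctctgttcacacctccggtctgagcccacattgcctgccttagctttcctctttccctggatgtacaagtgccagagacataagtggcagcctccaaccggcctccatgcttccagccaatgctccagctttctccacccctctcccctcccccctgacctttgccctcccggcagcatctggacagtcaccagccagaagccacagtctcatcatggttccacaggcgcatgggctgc

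The motifs searched on both strands were CACGTG and CATGTG, which the MiT family of lysosomal gene regulators can bind, TGACTCA, an AP-1 motif, and the DR1 repeat read by PPAR-gamma and its partner, which is AGGTCA and again AGGTCA with any 1 base between. In capitals, the Gpnmb promoter holds TGACTCA, which begins at position +9 counted from the gene start, and the Ctsl promoter holds CACGTG, which begins at -236. The Syngr1 and F7 windows hold none of these letters. Among 27025 promoters in the table, 8.09% held CACGTG, 15.9% CATGTG, 5.95% TGACTCA and 0.0481% the DR1 repeat. Of 24 genes named as higher in Gpnmb Fabp4 macrophages, the rule genes Gpnmb and Fabp4 among them, 18 were in the table, of which Ctsl and Plin2 held CACGTG, Ahnak2, Dhrs9 and Mmp12 held CATGTG, and Dhrs9, Gpnmb and Mmp12 held TGACTCA. A match describes the letters only.

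The rule used the counts of the same cells, so the levels of its genes are a description. Gpnmb Fabp4 macrophages held a median of 104 Gpnmb molecules a cell (interquartile range 47 to 211, highest 1538) and 9 Fabp4 molecules (5 to 20, highest 194), against 2 and 0 in other C1q cells. Summed per tag and scaled to the total molecules of the group (CPM), the lowest, median and highest of 12 tags were 3644, 4258 and 8871 CPM of Gpnmb in Gpnmb Fabp4 macrophages, 1555, 2119 and 5054 CPM in Gpnmb-only cells and 637, 1026 and 3019.7 CPM in other C1q cells. Fabp4 stood at 269, 436 and 537 CPM in Gpnmb Fabp4 macrophages, 6.61, 11 and 13.7 CPM in Gpnmb-only cells and 8.03, 13 and 24.6 CPM in other C1q cells. More cells passed the Gpnmb limit than the Fabp4 limit, 4562 and 1223 of the 8627 cells that met the remaining limits. Both shares that follow have the same numerator, so their difference restates these counts. Their intervals cover counting error only. Among cells that met the remaining limits, 1164 of 1223 with at least 3 Fabp4 molecules also had 5 or more of Gpnmb (95.2%, 93.8 to 96.3%), whereas 1164 of 4562 with at least 5 Gpnmb molecules had 3 or more of Fabp4 (25.5%, 24.3 to 26.8%). Just inside the limits, 165 Gpnmb Fabp4 macrophages had exactly 3 Fabp4 molecules and 32 had 5 to 7 Gpnmb molecules. Just outside, 214 Gpnmb-only cells had exactly 2 Fabp4 molecules, while 2755 of the 3398 had none.

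Limits on absolute counts favour deeply read cells. Gpnmb Fabp4 macrophages had a median of 33205 molecules and 5324 genes, against 21846 molecules and 4433 genes in Gpnmb-only cells and 16963 molecules and 3875 genes in other C1q cells. A rule on shares, with Gpnmb at least 0.03% and Fabp4 at least 0.02% of the molecules, chose 790 cells, of which 768 also met the main limits.

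Levels were summed over 8 macrophage markers that the rule did not use, from Cd68 and Csf1r to Mrc1 and Lyz2. The sum was 13038 to 22469.7 CPM (median 14697) in Gpnmb Fabp4 macrophages and 12857 to 22326 CPM (median 13858) in other C1q cells. These ranges overlapped. Pooled, Lyz2 made up most of it, at 10445 CPM in Gpnmb Fabp4 macrophages and 10882 CPM in other C1q cells. Single genes went both ways. Cd68 was at 2591 and 1539 CPM in the same order, Csf1r at 355 and 901 CPM, and Cd14 at 651 and 1192 CPM. Adgre1 and Mrc1 were lower as well, and Mertk and Fcgr1 slightly higher. None of the 8 was at 0. Marker sums of other cells follow, and their part in the results was not tested. Neutrophil markers had a median sum of 109 CPM in Gpnmb Fabp4 macrophages and 158 CPM in other C1q cells, and dendritic cell markers of 2.94 CPM in Gpnmb Fabp4 macrophages and 25.2 CPM in other C1q cells. T and NK cell markers summed to 0.462 to 19.6 CPM (median 3.29) in Gpnmb Fabp4 macrophages and 1.23 to 55.3 CPM (median 10.8) in other C1q cells. Fibroblast markers summed to 16.5 to 129 CPM (median 28.6) in Gpnmb Fabp4 macrophages and 38.3 to 477 CPM (median 191) in other C1q cells. For adipocytes, which also make Fabp4, 6 markers summed to 0 to 3.82 CPM (median 1.02) in Gpnmb Fabp4 macrophages and 0.461 to 3.21 CPM (median 0.86) in other C1q cells, with Adipoq and Cfd at 0 in Gpnmb Fabp4 macrophages. The 5 endothelial markers other than Fabp4 and Cd36 summed to 12.9 to 36.8 CPM (median 21.7) in Gpnmb Fabp4 macrophages and 14.6 to 29.5 CPM (median 24.9) in other C1q cells, and the groups overlapped. Platelet markers summed to 6.65 to 184 CPM (median 53) in Gpnmb Fabp4 macrophages and 3.77 to 291 CPM (median 145) in other C1q cells. Nearly all of this was Ppbp, pooled at 68.7 and 134 CPM in the same order. Itga2b was at 0.269 and 0.446 CPM, Gp9 at 0 and 0.0203 CPM, and Gp1bb at 0 in both. Among the 2% of cells with the highest doublet scores were 19 of the Gpnmb Fabp4 macrophages (1.63%) and 1.84% of other C1q cells.

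Gpnmb Fabp4 macrophages were found in each of the 18 tags, and their share of C1q cells varied widely. In library 1 the tags held 11.5%, 14.2%, 14.5%, 25.6%, 9.68%, 13.4% and 22.7%. Tags of library 2 held 0.495%, 2.59%, 7.57%, 3.37% and 2.42%, and those of library 3 held 0.554%, 2.84%, 4.03%, 3.90%, 5.17% and 5.28%. The lowest tag of library 1 was above the highest of both other libraries. Library 1 was made with other beads and another pipeline release, it kept intronic reads, and its run name includes d3, so chemistry and any difference of time or genotype cannot be told apart. Counted over libraries, libraries 1, 2 and 3 had 969, 92 and 103 of the cells. In 1 tag of library 2 and 1 of library 3, only 2 such cells were found.

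**Figure D1:**
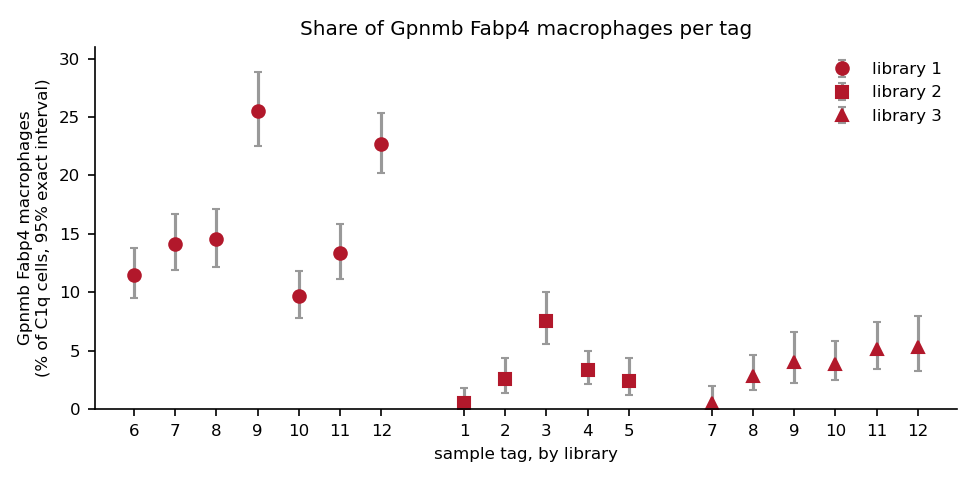
Share of Gpnmb Fabp4 macrophages among C1q cells (percent, vertical axis) in each of the 18 sample tags, grouped by library, with exact 95% intervals that cover counting error only. Tags of library 1 lie between 9.68 and 25.6%, and those of libraries 2 and 3 between 0.495 and 7.57%.

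Atp6v0d2 and Syngr1 were picked as companions of this population from these data, so their values are given without a test. Atp6v0d2 encodes the d2 isoform of a subunit of the vacuolar proton pump, found in few cell types such as osteoclasts. Its lowest, median and highest values over 12 tags were 141, 266 and 707 CPM in Gpnmb Fabp4 macrophages, against 27.1, 44.2 and 136 CPM in other C1q cells. Within a tag it was higher in Gpnmb Fabp4 macrophages in 12 of 12 tags (log2 difference 2.62). Syngr1, which encodes a vesicle membrane protein best known from synapses, stood at 225, 281 and 337 CPM in Gpnmb Fabp4 macrophages, against 72.7, 118 and 164 CPM in other C1q cells, and these ranges did not overlap. Atp6v0d2 was uneven among the cells. Of the Gpnmb Fabp4 macrophages 45.4% held none, the median was 1 molecule, and the highest cell held 153, whereas Syngr1 had a median of 7 and was seen in 93.0% of the cells.

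Gpnmb Fabp4 macrophages differed from other C1q cells in many genes. Counts were summed per tag and compared with edgeR's quasi-likelihood test with the tag as a block, over 12 tags that held at least 20 cells of each kind, with p-values adjusted by Benjamini and Hochberg over all genes tested. The 12 tags held 1107 of the 1164 cells. The other 6 tags held 2 to 15 each and were left out of the tests. Of 10956 genes, 2679 were higher in Gpnmb Fabp4 macrophages (24.5%) and 2934 were lower (26.8%), with a median log2 fold change of -0.0069. At least 2-fold, 117 were higher (1.07%) and 505 were lower (4.61%). The caps on class II, cavity and osteoclast genes bar cells from the Gpnmb Fabp4 macrophages that stay among other C1q cells. Genes of such cells are favoured to be lower. Against other C1q cells that met these caps, 304 of 10648 genes were lower at least 2-fold. Without library 1, 5 tags were left and 1148 genes were higher and 1257 lower. Counts of list genes below are to be read against those shares. With the tag as a block, the p-values rest on how far the difference within a tag varies from tag to tag. Up to 2 genes of each list were picked by a rule on the size of their called change, and all other list genes named below were chosen after their values were seen.

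**Figure D2:**
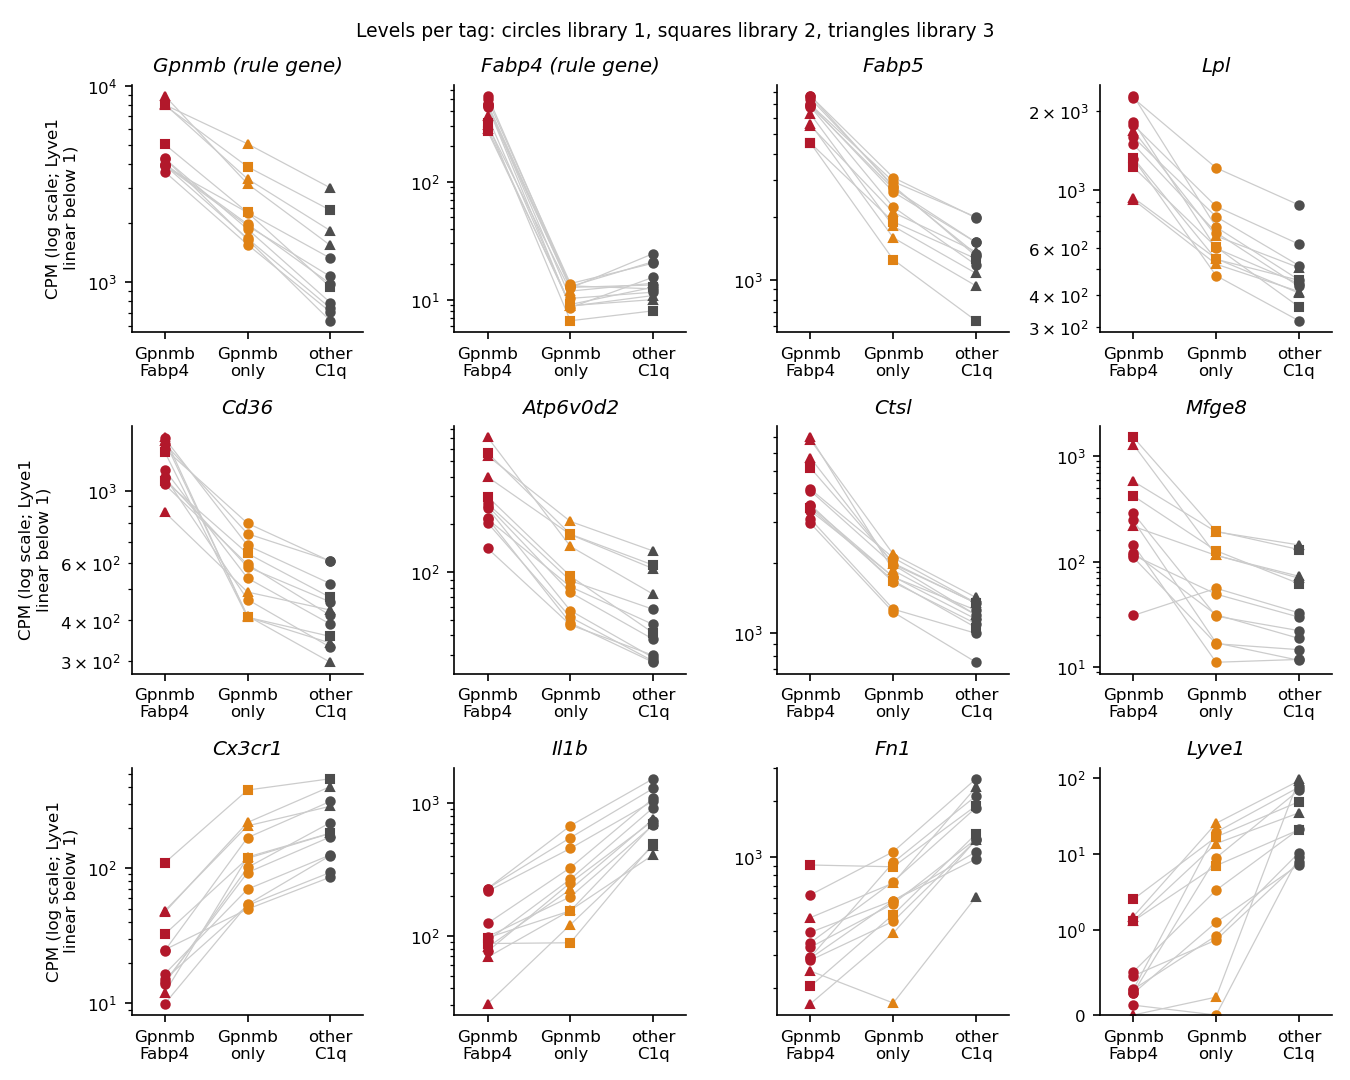
Levels in CPM of 12 genes in 12 sample tags, with Gpnmb Fabp4 macrophages left, Gpnmb-only cells in the middle and other C1q cells right. Each point is 1 tag, its shape gives the library, and lines join the groups of cells of a tag, on log axes (that of Lyve1 is linear below 1 CPM). Fabp5 lies between 4525 and 7634 CPM in Gpnmb Fabp4 macrophages and at no more than 1996 CPM in other C1q cells, and Lyve1 runs the opposite way.

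Of lipid uptake and scavenger receptor genes 8 of 15 tested were higher and 5 were lower (median log2 fold change 0.22), and without the pairing by tag 5 were higher. Fabp5, Lpl and Cd36 were among the higher ones. Fabp5, the neighbour and relative of Fabp4, had 4525, 6798 and 7634 CPM in Gpnmb Fabp4 macrophages, against 635, 1312 and 1996 CPM in other C1q cells, a gap with no overlap (log2 fold change 2.35, SE 0.082, adjusted p = 5.58e-14). Lpl encodes lipoprotein lipase, which frees fatty acids from circulating triglycerides. It had 919.6, 1546 and 2293 CPM in Gpnmb Fabp4 macrophages, against 318, 446 and 878 CPM in other C1q cells, again without overlap (log2 fold change 1.75, SE 0.083, adjusted p = 1.76e-12). Cd36, a fatty acid translocase and scavenger receptor, had 863, 1243 and 1468 CPM in Gpnmb Fabp4 macrophages, against 297, 423 and 611 CPM in other C1q cells (log2 fold change 1.58, SE 0.09, adjusted p = 1.68e-11). Fabp3 and the transporter Slc27a1 also rose (log2 fold changes 1.20 and 1.02). The lower members were other receptors. Marco, a scavenger receptor of tissue macrophages, averaged 0.547 CPM in Gpnmb Fabp4 macrophages and 24.1 CPM in other C1q cells (log2 fold change -5.77, SE 0.25, adjusted p = 5.66e-13). Marco had 28 molecules in all Gpnmb Fabp4 macrophages and could be fitted under 9 of 14 alternatives. Cd163, the receptor of haemoglobin bound to haptoglobin, averaged 2.25 CPM in Gpnmb Fabp4 macrophages and 41.3 CPM in other C1q cells (log2 fold change -3.30, SE 0.27, adjusted p = 3.05e-09). Olr1 and Scarb1, which bind oxidised and high-density lipoproteins, were lower as well (log2 fold changes -2.52 and -0.38). Msr1, the class A scavenger receptor, was slightly higher (0.28, adjusted p = 0.000448).

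Storage and oxidation genes were partly higher. Of lipid droplet and storage genes 6 of 13 tested were higher and 5 were lower (median log2 fold change 0.25). Plin2, the coat protein of droplets, averaged 1312 CPM in Gpnmb Fabp4 macrophages and 756 CPM in other C1q cells (log2 fold change 0.86, SE 0.037, adjusted p = 5.65e-13). Soat1, which esterifies cholesterol, and the droplet protein Plin3 were higher (log2 fold changes 0.90 and 0.76), while the triglyceride enzymes Dgat1 and Dgat2 were lower (-0.35 and -0.57). Among PPAR-gamma and fatty acid oxidation genes 12 of 17 tested were higher and 2 were lower (median log2 fold change 0.27). Without library 1 the counts of that list were 4 and 1. Pparg itself, the receptor that drives Fabp4, Cd36 and Plin2 in adipocytes, averaged 63.8 CPM in Gpnmb Fabp4 macrophages and 43.6 CPM in other C1q cells (log2 fold change 0.63, SE 0.066, adjusted p = 1.11e-07). Ucp2, a mitochondrial carrier and the most abundant gene of the list, was lower (1195 CPM in Gpnmb Fabp4 macrophages and 1603 CPM in other C1q cells, log2 fold change -0.35).

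Genes of cholesterol synthesis were mostly lower, and those of efflux were mixed. Among genes of cholesterol synthesis 2 of 13 tested were higher and 8 were lower (median log2 fold change -0.38). Of efflux genes and targets of the liver X receptor 3 of 12 tested were higher and 2 were lower (median log2 fold change 0.051). Abcg1, a cholesterol exporter, and Nr1h3, which encodes the receptor, were higher (0.86 and 0.83), and the phospholipid transfer gene Pltp was lower (-0.67). The remaining higher gene was the galectin gene Lgals3 (1.38), the only gene of the list higher at least 2-fold. Abca1, the other main exporter, differed by 0.057 (adjusted p = 0.403) and Apoe by -0.046 (adjusted p = 0.595). Pooled and without a test, Apoe was at 6275 CPM in Gpnmb Fabp4 macrophages and 10946 CPM in Gpnmb-only cells. Among cells with at least 5 Gpnmb molecules in library 1, it was at 6732 CPM with 0 Fabp4 molecules and 4712 CPM with 25 or more. Within libraries 2 and 3 the same values were 17108 and 7056 CPM, the latter in 12 cells.

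Lysosomal genes were mostly higher. Of V-ATPase subunits, which build the proton pump of lysosomes, 16 of 16 genes besides Atp6v0d2 were higher in Gpnmb Fabp4 macrophages, with log2 fold changes between 0.18 and 0.90. Over 14 alternatives, with Atp6v0d2 counted, 15 to 17 genes of the list were higher. Among hydrolases and cathepsins 22 of 27 tested were higher and 2 were lower (median log2 fold change 0.50). Ctsl, a cysteine protease of lysosomes, had 2977, 3842 and 6979 CPM in Gpnmb Fabp4 macrophages, against 752, 1201 and 1428 CPM in other C1q cells, with no overlap (log2 fold change 1.91, SE 0.073, adjusted p = 1.02e-13). Ctsk, a collagen-degrading cathepsin best known in osteoclasts, averaged 50.5 CPM in Gpnmb Fabp4 macrophages and 24.1 CPM in other C1q cells (log2 fold change 1.28, SE 0.15, adjusted p = 8.09e-07). Ctsd, Psap, the precursor of sphingolipid activators, Lipa, the acid lipase for cholesteryl esters, and Ctsb also rose (log2 fold changes 1.04, 0.97, 0.90 and 0.74), whereas Ctsc, which activates granule proteases, fell (-0.76). Of membrane and trafficking genes 12 of 19 tested were higher and 2 were lower (median log2 fold change 0.34), a list that counts Syngr1, the marker picked from these data, among the higher ones. Rragd, a Rag GTPase that couples lysosomes to mTORC1, averaged 8.84 CPM in Gpnmb Fabp4 macrophages and 2.83 CPM in other C1q cells (log2 fold change 1.70, SE 0.18, adjusted p = 1.03e-07), and Pld3 and Cd63 were higher by 1.15 and 0.93 on the log2 scale.

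**Figure D3:**
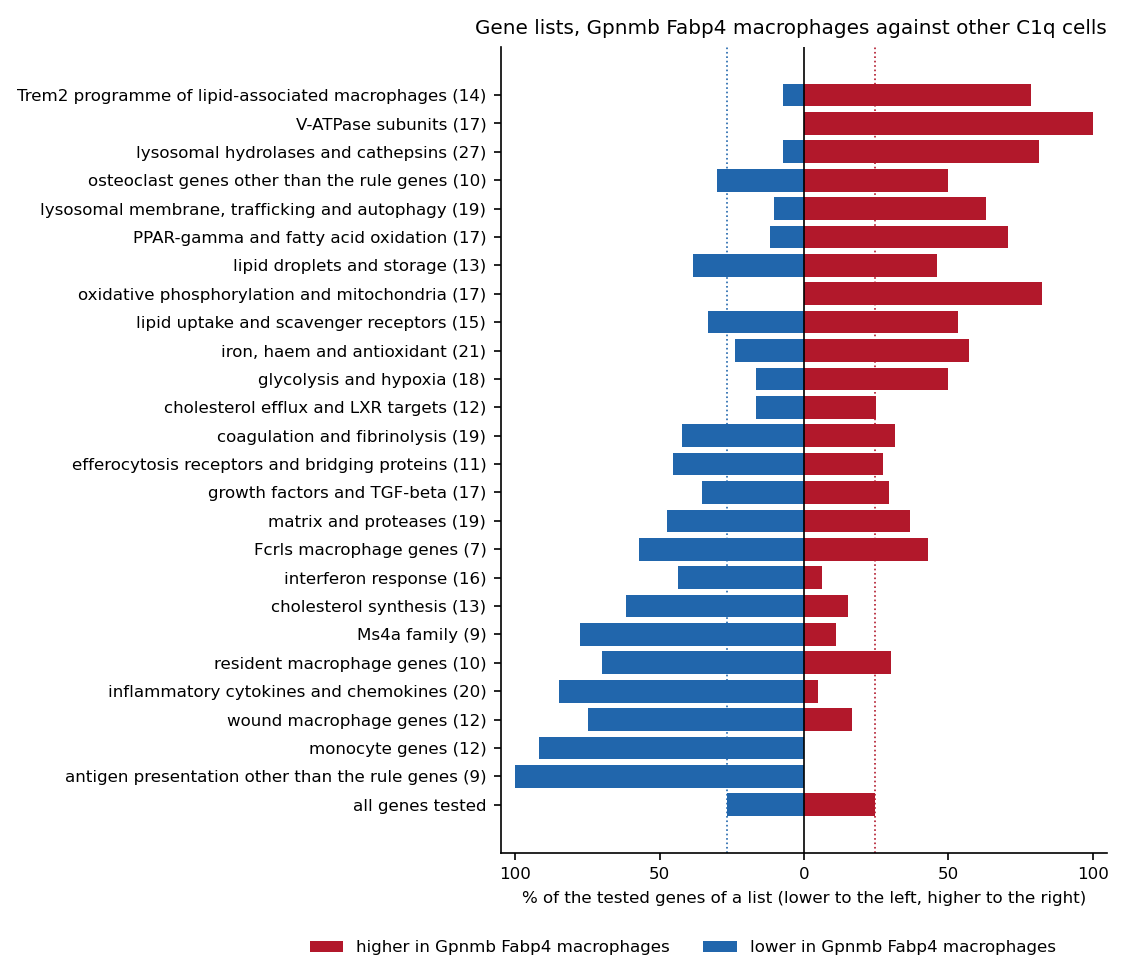
Share of the tested genes of each list (number tested in brackets) that were higher (right) or lower (left) in Gpnmb Fabp4 macrophages than in other C1q cells, in percent, in the order of the lists' median fold changes. Dotted lines mark the shares over all genes, 24.5% higher and 26.8% lower. All 17 V-ATPase genes were higher, Atp6v0d2 among them, and the 9 of 9 lower in the antigen presentation list include the chemokine receptors Ccr2 and Cx3cr1.

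Among 14 tested genes of the Trem2 programme, a set known from microglia and fat macrophages, 11 were higher and 1 was lower (median log2 fold change 0.80). The list shares Lpl, Ctsl, Ctsd, Cd63 and Lgals3 with lists above. Lgals3, which encodes a galectin that binds damaged lysosomes, averaged 7406 CPM in Gpnmb Fabp4 macrophages and 2973 CPM in other C1q cells (log2 fold change 1.38, SE 0.045, adjusted p = 4.16e-14). Spp1, the secreted phosphoprotein osteopontin, averaged 10697 CPM in Gpnmb Fabp4 macrophages and 3737 CPM in other C1q cells (log2 fold change 1.62, SE 0.073, adjusted p = 9.49e-13). Trem2 itself, a lipid-sensing receptor, was higher by 0.56 on the log2 scale.

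Matrix and protease genes went both ways. Of that list 7 of 19 tested were higher and 9 were lower (median log2 fold change -0.19). Mmp12, macrophage elastase, and the neutrophil collagenase gene Mmp8 were higher (log2 fold changes 1.91 and 1.77), together with Adam8 (1.07). Lox, which crosslinks collagen, and Vcan, a proteoglycan gene of monocytes and fibroblasts, were lower (-2.40 and -2.04), and so were Fn1, which encodes fibronectin (379 CPM in Gpnmb Fabp4 macrophages and 1544 CPM in other C1q cells, -2.0), and Tgfbi (-1.20). The fibroblast marker sum given above was lower in Gpnmb Fabp4 macrophages as well, and its part in Lox was not tested. Mmp9 was lower (-1.15), as one of the osteoclast genes, of which 5 of 10 tested were higher and 3 were lower (median log2 fold change 0.49). Because the rule capped Ocstamp and Dcstamp, that list was limited by the choice of cells.

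Clearance receptors showed no common direction, with 3 genes higher and 5 lower of 11. Mfge8, which bridges phosphatidylserine on dying cells to integrins, had 30.9, 232 and 1519.8 CPM in Gpnmb Fabp4 macrophages, against 11.6, 31.3 and 145 CPM in other C1q cells (log2 fold change 2.89, SE 0.28, adjusted p = 4.06e-08). It was higher in Gpnmb Fabp4 macrophages in 11 of 12 tags, and the ranges overlapped. Its spread was wide, since the median Gpnmb Fabp4 macrophage held 0 molecules and the highest cell 667. Axl, a receptor for the bridging protein Gas6, averaged 34.4 CPM in Gpnmb Fabp4 macrophages and 119.8 CPM in other C1q cells (log2 fold change -1.85, SE 0.10, adjusted p = 4.92e-12). Gas6 was higher (0.50), and for Mertk the difference was 0.052 with an adjusted p of 0.442.

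Genes of resident macrophages were mostly lower, 7 of 10 against 3 higher. Lyve1, a hyaluronan receptor of resident cardiac macrophages, had 0, 0.382 and 2.55 CPM in Gpnmb Fabp4 macrophages, against 7.26, 27.9 and 95.3 CPM in other C1q cells (log2 fold change -5.84, SE 0.21, adjusted p = 6.67e-14), and both Gas6 and Igf1 of the list were higher, Igf1 by 0.96 on the log2 scale. Within the Fcrls list, 3 of 7 were higher and 4 were lower, with Ltc4s, a leukotriene enzyme, at -3.35. Of monocyte genes 11 of 12 tested were lower and S100a6 did not pass (median log2 fold change -1.31), the lower ones including Ifitm6 at -2.28 and Ccr2, the receptor by which monocytes enter tissue, which averaged 164 CPM in Gpnmb Fabp4 macrophages and 666 CPM in other C1q cells (log2 fold change -2.07, SE 0.19, adjusted p = 2.02e-08). Ccr2 is counted in the antigen presentation list too. The 7 monocyte markers of the marker check summed to 124 to 1303 CPM (median 803) in Gpnmb Fabp4 macrophages and 572 to 2333 CPM (median 1881) in other C1q cells. Cx3cr1, from whose locus Cre was driven in 1 group of mice, averaged 30.8 CPM in Gpnmb Fabp4 macrophages and 220.4 CPM in other C1q cells (log2 fold change -2.98, SE 0.16, adjusted p = 5.31e-12).

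In the antigen presentation list, which leaves out the rule genes but holds the chemokine receptors Ccr2 and Cx3cr1, 9 of 9 genes were lower (median log2 fold change -1.66). Ciita, the master regulator of class II, was at -3.29. The rule capped class II, which favours this direction. Against those other C1q cells that also met the caps on class II, cavity and osteoclast genes, 9 of 9 were lower with a median of -1.29.

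Inflammatory genes were lower as a group. Of 20 cytokine and chemokine genes tested, 17 were lower and 1 was higher (median log2 fold change -0.68). Il1b, the inflammasome-processed cytokine, had 30.6, 94.1 and 227 CPM in Gpnmb Fabp4 macrophages, against 408, 749.8 and 1532 CPM in other C1q cells (log2 fold change -2.81, SE 0.10, adjusted p = 5.58e-14). Il6 averaged 2.16 CPM in Gpnmb Fabp4 macrophages and 94 CPM in other C1q cells (log2 fold change -5.09, SE 0.25, adjusted p = 2.03e-12), and Ccl24, an eosinophil chemokine, was at -4.44. Il1a and Cxcl10 were lower too (-2.23 and -1.88), whereas Ccl7 was higher by 0.28. Without the pairing by tag, 11 of the cytokine and chemokine genes and 7 of the monocyte genes were lower. Of wound macrophage genes 2 of 12 tested were higher and 9 were lower (median log2 fold change -0.96), and 4 to 12 were lower over 14 alternatives, the fewest without the pairing. Saa3, an acute-phase protein, averaged 24.8 CPM in Gpnmb Fabp4 macrophages and 506 CPM in other C1q cells (log2 fold change -3.79, SE 0.34, adjusted p = 1.46e-08), and the antiprotease gene Slpi was at -3.30. Arg1 was at -0.96. The higher ones were Hmox1 and Prdx1, haem and peroxide detoxifying enzymes (0.87 and 0.71). Interferon genes depended on the library. With 12 tags 7 of 16 were lower and 1 was higher, and without library 1 3 were higher while the others did not pass. Ifi204, a DNA sensor gene, was at -0.25 with an adjusted p of 0.0202. It has near copies such as Ifi211, as Ms4a4b has in its own family, and the labels and headers do not say how reads were shared between copies.

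Genes of energy metabolism that passed were mostly higher. Of oxidative phosphorylation genes 14 of 17 tested were higher and the rest did not pass (median log2 fold change 0.23), with 8 higher without library 1. Cox4i1, the most abundant of them, was higher by 0.17 (adjusted p = 0.00109), a call that was lost under 4 of 14 alternatives: without the filter on low counts, without the pairing by tag, without library 1, and in cells of 10000 to 40000 molecules. Of glycolysis genes 9 of 18 tested were higher and 3 were lower (median log2 fold change 0.20), and Hk3, a myeloid hexokinase, averaged 138 CPM in Gpnmb Fabp4 macrophages and 54.6 CPM in other C1q cells (log2 fold change 1.39, SE 0.067, adjusted p = 1.89e-12). Of iron, haem and antioxidant genes 12 of 21 tested were higher and 5 were lower (median log2 fold change 0.21), against 7 and 4 without library 1. Tfrc, the transferrin receptor, was at 0.85 and Slc7a11, the cystine importer, at -1.26. Growth factor genes split into 5 higher and 6 lower of 17, with Areg, a ligand of the EGF receptor, at -2.14. Of 9 Ms4a genes, 7 were lower, led by Ms4a8a and Ms4a4b (-1.76 and -1.33), and 1 was higher, Ms4a6d (0.32).

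Outside the lists, the genes with the highest fold changes and at least 50 CPM were led by Npy, which encodes neuropeptide Y. It had 19.4, 40.0 and 362 CPM in Gpnmb Fabp4 macrophages, against 2.77, 7.92 and 43.3 CPM in other C1q cells (log2 fold change 2.76, SE 0.15, adjusted p = 1.13e-11). After it came Plpp3, a phosphatase of lysophosphatidic acid (2.34), Htr2b, a serotonin receptor (2.16), Dhrs9, a retinol dehydrogenase (1.99), Fam198b (1.88), Ahnak2 (1.65), the RNA-binding protein gene Igf2bp2 (1.64) and Il7r, the interleukin-7 receptor chain (1.59). Il7r averaged 421 CPM in Gpnmb Fabp4 macrophages and 145 CPM in other C1q cells, and the T and NK markers were low in both, as given above. The lowest were Tmem176b and Tmem176a, which encode a pair of ion channel-like membrane proteins (-3.12 and -2.99), the immunoglobulin gene Ighm (-3.02), complement C4b (-2.35), Trem1, an amplifier of inflammation (-2.33), Ptgs1, cyclooxygenase 1 (-2.25), Col14a1, a collagen (-2.12), and the immediate early gene Nr4a3 (-2.04). B cell markers, Ighm among them, summed to 5.24 to 37.6 CPM (median 11.4) in Gpnmb Fabp4 macrophages and 19.2 to 118 CPM (median 74) in other C1q cells, and their part in Ighm was not tested.

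The comparison with Gpnmb-only cells asked what goes with Fabp4 where Gpnmb is already present. The groups were not matched for Gpnmb, with medians of 104 molecules in Gpnmb Fabp4 macrophages and 28 in Gpnmb-only cells. Median depth was 33205 and 21846 molecules in the same order. Genes that follow Gpnmb or depth can thus pass as well, and the part of Gpnmb was not tested. Fewer genes passed. Of 10123, 1536 were higher in Gpnmb Fabp4 macrophages (15.2%) and 1807 were lower (17.9%), and at least 2-fold 47 were higher (0.464%) and 83 were lower (0.82%). Fabp5 averaged 6373 CPM in Gpnmb Fabp4 macrophages and 2325 CPM in Gpnmb-only cells (log2 fold change 1.52, SE 0.055, adjusted p = 8.21e-15). Besides Fabp5, the genes of at least 50 CPM with the highest fold changes were Mfge8, Npy, Plpp3 and Mmp12 (2.24, 1.91, 1.66 and 1.61), and the marker Atp6v0d2. Atp6v0d2 differed by 1.78 and Syngr1 by 0.56. The lowest were Cx3cr1 (log2 fold change -2.20, SE 0.12, adjusted p = 1.22e-11), Tmem176b, Saa3, Igfbp4, Id3 and Nr4a3 (-1.83, -1.56, -1.39, -1.30 and -1.26). Saa3 lost its call when tags with 10 cells were let in. Of V-ATPase genes 17 of 17 were higher, Atp6v0d2 included, with a median of 0.34. Over 10 alternatives 11 to 17 of them were higher, 11 both without the pairing by tag and without library 1.

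Among cells with at least 5 Gpnmb molecules, levels were also read by the number of Fabp4 molecules, in bins of 0, 1 and 2 (Gpnmb-only cells) and of 3, 4 to 6, 7 to 12, 13 to 24 and 25 or more (Gpnmb Fabp4 macrophages). The bins held 2755, 429, 214, 165, 270, 272, 242 and 215 cells, and the median molecules per cell went up along them from 21057 to 44287, so depth moves with the bins. Gpnmb moves with them too, at 2330.1 CPM in the lowest and 5357 CPM in the highest bin, and so does the library, since library 1 gave 1354 of 2755 cells in the lowest bin and 203 of 215 in the highest. The part of depth, Gpnmb and library in these levels was not tested. This is a description without a test. Fabp5 stood at 1903, 3489, 4291, 4568, 5267, 6384, 7451 and 9031 CPM from the lowest bin to the highest. F7 stood at 12.8, 23.1, 27.4, 40.8, 32.9, 46.3, 56.5 and 76.7 CPM, and Lpl at 635, 833, 928, 1425, 1359.9, 1568, 2065 and 2083 CPM. Fabp5, F7 and Lpl were each higher in the highest bin than in the lowest. Within library 1, F7 was at 19.3 CPM in the lowest and 81 CPM in the highest bin, and within libraries 2 and 3 at 5.04 and 12.8 CPM. Cx3cr1 went the other way, at 155, 69.9, 36.8, 36.6, 27, 22.1, 13.7 and 14.4 CPM. Its values at the same ends were 97.9 and 12.4 CPM within library 1, and 223 and 43.3 CPM within libraries 2 and 3, whose highest bin held 12 cells. Between 2 and 3 Fabp4 molecules, where the limit was set, no gap appeared in Fabp5 or Cx3cr1. Lpl went from 928 to 1425 CPM there and F7 from 27.4 to 40.8 CPM, and both were lower again in the next bin.

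**Figure D4:**
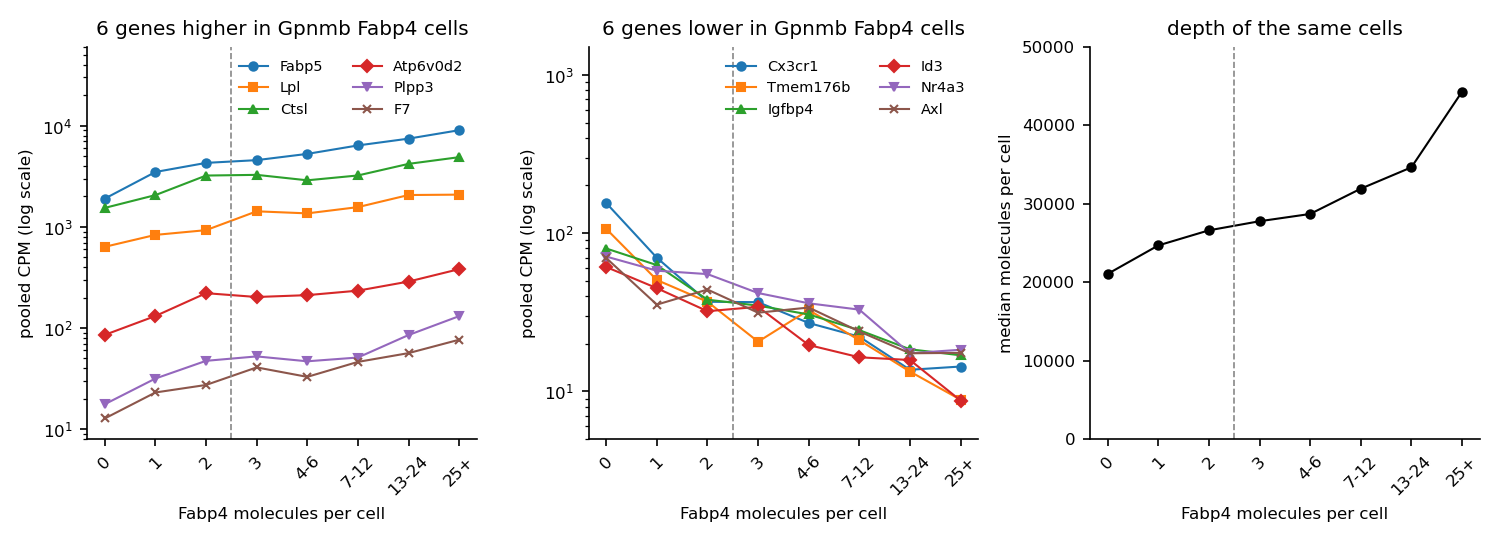
Pooled levels in CPM (log axes) of 6 genes that were higher (left) and 6 that were lower (middle) in Gpnmb Fabp4 macrophages, and median molecules per cell (right), in cells with at least 5 Gpnmb molecules, by Fabp4 molecules per cell. The dashed line marks the limit of 3 molecules. Fabp5 is at 1903 CPM at 0 molecules and 9031 CPM at 25 or more, and Cx3cr1 is at 155 and 14.4 CPM at the same ends.

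F7, the gene of coagulation factor VII that the study deleted with Cre, was higher in Gpnmb Fabp4 macrophages. F7 starts the extrinsic pathway with tissue factor, encoded by F3, and activates factor X, encoded by F10, its neighbour 1.5 kb further along chromosome 8 (F7 at chr8:13026034-13035809, plus strand). Since tags have no genotype in the sources used here, F7 cannot check the labels. Cre acts where Cx3cr1 is or was active, and Cx3cr1 was lower in Gpnmb Fabp4 macrophages. In tags of mice with Cre, F7 may have been deleted unequally in the groups of cells compared. Expression and unequal deletion of F7 cannot be told apart here. In library 1 the tags had 30.7, 24.7, 17.4, 70.1, 122, 42.4 and 80.1 CPM in Gpnmb Fabp4 macrophages and 9.39, 6.35, 7.43, 20.6, 42, 10.3 and 24.3 CPM in other C1q cells. For library 2, 2 tags had values of 8.28 and 17.2 CPM in Gpnmb Fabp4 macrophages and 3.16 and 4.99 CPM in other C1q cells, and for 3 tags of library 3 the values were 3.99, 38.7 and 24.2 CPM in Gpnmb Fabp4 macrophages and 3.61, 6.0 and 9.67 CPM in other C1q cells. F7 was higher in Gpnmb Fabp4 macrophages in all 12 tags, although levels differed more between tags than between the groups of cells and the ranges overlapped (log2 fold change 1.78, SE 0.10, adjusted p = 1.14e-11). Log2 fold changes fitted within libraries alone were 1.78, 1.68 and 1.82 in libraries 1, 2 and 3. F7 was also higher against Gpnmb-only cells (log2 fold change 1.49, SE 0.11, adjusted p = 1.34e-09).

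Counts of F7 were few. Counted as lymphoid here were all cells with any molecule of Cd3e, Cd3d, Cd3g or Cd79a and with the C1q genes under 0.1%. A stray molecule is enough for that, so other leukocytes can be among them. Thinned to 5000 molecules a cell, which left out 0 Gpnmb Fabp4 macrophages, 48 Gpnmb-only cells, 631 other C1q cells and 277 lymphoid cells, F7 was seen in 16.8% (95% interval 14.7 to 19%) of Gpnmb Fabp4 macrophages, 5.79% (95% interval 5.02 to 6.64%) of Gpnmb-only cells and 4.77% (95% interval 4.35 to 5.21%) of other C1q cells. In the cells counted as lymphoid, the share was 1.4%. Unthinned, the shares were 44%, 15%, 11.5% and 3.42%, at median depths of 33205, 21846, 16963 and 9333 molecules. The intervals cover counting error only. Detection of F7 in Gpnmb Fabp4 macrophages was above the share in lymphoid cells before and after thinning. Gpnmb itself was seen in 26% of the thinned lymphoid cells, so these are not free of macrophage transcripts.

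F3 was lower in Gpnmb Fabp4 macrophages. It had 0, 0.776 and 5.32 CPM in Gpnmb Fabp4 macrophages, against 2.0, 9.04 and 72.7 CPM in other C1q cells (log2 fold change -4.06, SE 0.33, adjusted p = 2.76e-09), and within libraries its log2 fold changes were -4.45, -3.98 and -0.69 in libraries 1, 2 and 3. In library 3 alone F3 did not pass. After thinning, F3 was seen in 0.43% of Gpnmb Fabp4 macrophages and 3.28% of other C1q cells, against 1.12% of lymphoid cells. The share in Gpnmb Fabp4 macrophages was thus not above that of lymphoid cells. F10 had 5.29, 26.7 and 52 CPM in Gpnmb Fabp4 macrophages, against 9.77, 50.4 and 169 CPM in other C1q cells and was lower in 10 of 12 tags (log2 fold change -1.0, SE 0.17, adjusted p = 4e-05). The F10 call was lost among cells of 10000 to 40000 molecules (log2 fold change -0.44), and against Gpnmb-only cells F10 differed by -0.14 (adjusted p = 0.523). Thinned, F10 was seen in 12.1% of Gpnmb Fabp4 macrophages and 14.8% of other C1q cells, against 14.2% of lymphoid cells. Detection of F10 thus did not set either group apart from lymphoid cells. As lymphoid cells held Gpnmb too, they cannot show whether F10 is expressed in either group. Of the coagulation and fibrinolysis list 6 of 19 tested were higher and 8 were lower (median log2 fold change -0.074). Serpinb2, an inhibitor of plasminogen activators, was at -4.43, and F5, the cofactor gene of factor X, at -2.83. The cap on cavity macrophage genes left such cells among other C1q cells only. Pooled, Serpinb2 was at 3.40 CPM in Gpnmb Fabp4 macrophages, 4.38 CPM in Gpnmb-only cells and 99.0 CPM in other C1q cells. Other C1q cells that met the caps but neither the Gpnmb nor the Fabp4 limit were at 46.0 CPM. Higher were Serpinb6a, Anxa2, which binds plasminogen, and Tfpi, the inhibitor of the pathway that F7 starts (0.86, 0.67 and 0.46).

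**Figure D5:**
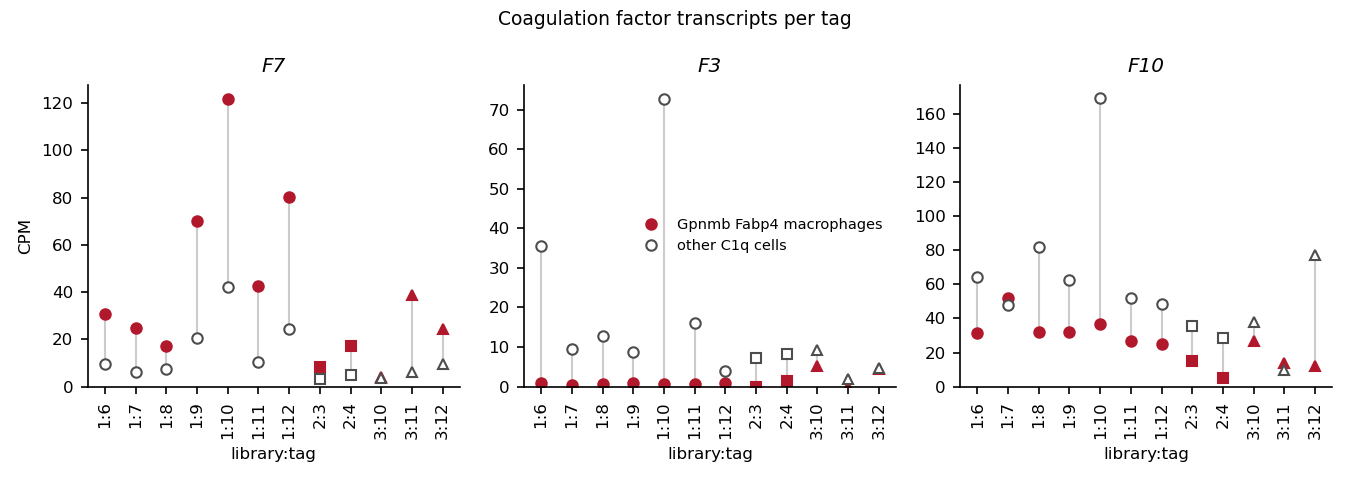
Levels in CPM of F7, F3 and F10 in each of 12 tags (library and tag number on the horizontal axis), with filled symbols for Gpnmb Fabp4 macrophages and open symbols for other C1q cells of the same tag, joined by a line. F7 is higher in Gpnmb Fabp4 macrophages in 12 of 12 tags, and F3 has a median of 0.776 CPM in Gpnmb Fabp4 macrophages and 9.04 CPM in other C1q cells.

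Shares of cells with a molecule of further genes were read in the same way. After thinning, Fabp4 was seen in 75.6% of Gpnmb Fabp4 macrophages, which were chosen by it, and in 2.06% of lymphoid cells. Lpl was seen in 80.2% of Gpnmb Fabp4 macrophages, 53.6% of Gpnmb-only cells, 44.7% of other C1q cells and 12.2% of lymphoid cells. Plpp3 was seen in 19.7% of Gpnmb Fabp4 macrophages and 3.26% of other C1q cells, the second at the lymphoid share of 3.28%. Il7r was seen in 68.5% of Gpnmb Fabp4 macrophages and in 41.9% of the cells counted as lymphoid, and T cells use this receptor.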

How the data were processed

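The authors deposited molecule counts per cell and gene, deduplicated by molecular identifier with RSEC error correction, per the file headers, which also name GRCm38 and GENCODE M19. The headers give release 2.0b1, Enhanced beads and intronic reads kept for library 1, and release 1.10 and Original beads for libraries 2 and 3. Such chemistry changes how many molecules a cell yields, so libraries were not compared by a test. Settings of the aligner: not given in the sources used here.

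Of 25762 cells, 122 with fewer than 200 genes were left out. The members of the population and the gene lists were chosen with earlier results of these data known. Counts were summed per tag and group of cells, genes low in counts were removed with filterByExpr, and edgeR 4.0.16 (R 4.3.3) was run with TMM factors, the quasi-likelihood test and the tag as a block, with a Benjamini-Hochberg threshold of 0.05. The tag pairs the groups because both come from the same tagged sample. The 19 genes of the rule were not tested. Atp6v0d2 and Syngr1 are given without a p-value but count in their lists. DESeq2 1.42.0, other filters, thresholds and subsets were tried as alternatives. A comparison with cells high in Fabp4 and low in Gpnmb was not made, as the most in 1 tag was 10. Genes were named by a rule: F7, F3 and F10, the 2 largest called changes of at least 2-fold in each list in at least 80% of tags (or the most abundant gene), and the 8 highest and 8 lowest others of at least 50 CPM, or 6 and 6 against Gpnmb-only cells. Doublets were scored with Scrublet in scanpy 1.11.5. Its automatic threshold called 0, 1 and 1 cells in libraries 1, 2 and 3, so doublets were kept in and the 2% with the highest scores removed as an alternative. Some genes are not reported here. The procedure was tested on simulated data.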

Additional observations from a re-analysis of the deposited data

Results flagged for a closer look

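Of 60 groups of values, 57 of them the CPM of 1 named gene in the Gpnmb Fabp4 macrophages of the 7 tags of library 1 and 3 of them the shares per tag of a library, 8 held 1 tag that stood apart from the rest by Dixon's criterion (for 7 tags, a gap of more than 0.568 of the whole range). Chance flags about 1 in 20 groups. In tag 10, C4b was at 27.9 CPM, against 7.15 to 15.8 CPM in the other tags. Tag 10 was also highest for Ccl24 at 9.62 CPM (others 0 to 1.16), Ltc4s at 14.7 CPM (2.55 to 4.62), Mmp9 at 51.4 CPM (8.91 to 25.4) and Saa3 at 98.6 CPM (8.94 to 25.7). Each of these genes was lower in Gpnmb Fabp4 macrophages than in other C1q cells over 12 tags. Tag 10 held the lowest share of Gpnmb Fabp4 macrophages in library 1, 9.68% of C1q cells. In other tags, Vcan was at 31.6 CPM in tag 7 (9.78 to 18.4) and Il7r at 569 CPM in tag 6 (406 to 475). Rragd was low in tag 8, at 3.06 CPM against 6.31 to 7.55 CPM.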

How the results depend on the processing

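Of 68 results, 62 kept their direction and their side of the threshold under every alternative run, and 873 of 885 values stayed on the same side. Most of the 68 were genes picked for large called changes in the main fit, and the alternatives share many of its cells. The choice of genes thus favoured stable results, and the counts over all genes that follow were not picked in this way. With other C1q cells as the comparison, dropping the filter on low counts gave 183 genes higher and 1158 lower at least 2-fold, with a median of -0.18 over all genes. Without the pairing by tag (no block), 1923 genes were lower. Among cells of 10000 to 40000 molecules, 1755 were higher. Against cells that met the other limits, 304 were lower at least 2-fold, and against cells with Gpnmb below 5 and Fabp4 below 3, an alternative chosen after seeing the data, 261 were higher at least 2-fold. Leaving out a library gave 1148 to 2647 higher, 1257 to 2899 lower, 118 to 162 higher and 452 to 532 lower at least 2-fold. The 1148 and 1257 were without library 1, which leaves 5 tags. With Gpnmb-only cells, no filter gave 78 higher and 201 lower at least 2-fold, no block gave 713 higher and 683 lower, and the depth window gave 827 and 964. Leaving out a library gave 601 to 1489 higher, 561 to 1716 lower, and 47 to 73 higher and 78 to 84 lower at least 2-fold. The median share per tag was 3.37 to 10.6% with a library left out.

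The differences reversed were those of Ifi204, at -0.35 to 0.035 with a library left out and above 0 without library 1, and of F10 against Gpnmb-only cells, which was not called, at 0.055 with DESeq2, -0.20 to 0.63 with a library left out and 0.21 in the depth window. The cause was not tested. Calls were lost for Cox4i1, Ifi204, Ms4a4b, F10 and Saa3 under at least 1 alternative. Few molecules limit Lyve1 and Marco (17 and 28 in all Gpnmb Fabp4 macrophages), F3, Lox, Ciita, Ccl24, Il6, Ms4a4b, Areg, Cd163 and Serpinb2, and in some tags F7 and F10.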

Other observations

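Small groups beside the main population were read as pooled counts, without a test and without a spread between tags. The pools differ in library, since library 1 gave 969 of 1164 Gpnmb Fabp4 macrophages, 50 of the 59 and 28 of the 55 cells described here, and the part of the library in these levels was not tested. A group of 59 cells met every limit but had Gpnmb below 5, and its Fabp4 level was 270.3 CPM. Fabp5 was at 6795 CPM in all 1164 Gpnmb Fabp4 macrophages pooled and 3366 CPM in these 59 cells. Lpl was at 1737 CPM in Gpnmb Fabp4 macrophages and 516 CPM in the 59 cells, and Atp6v0d2 at 273 CPM in Gpnmb Fabp4 macrophages and 69.4 CPM in the 59 cells. Fn1, the fibronectin gene, was at 357 CPM in Gpnmb Fabp4 macrophages and 1908 CPM in the 59 cells.

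A further 55 cells held Gpnmb and Fabp4 above their limits but had class II genes at 1% or more. Fabp5 was at 6795 CPM in Gpnmb Fabp4 macrophages and 4445 CPM in these 55 cells. Mmp12 was at 477 CPM in Gpnmb Fabp4 macrophages and 1028 CPM in the 55 cells. Ctsl was at 3765 CPM in Gpnmb Fabp4 macrophages and 1055 CPM in the 55 cells, while Il1b was at 130.0 CPM in Gpnmb Fabp4 macrophages and 849.9 CPM in the 55 cells.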
